A study of Mus musculus with 6 samples.

Results

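A group of 45 genes whose products carry out mitosis and chromosome segregation was described in the infarcted mouse heart. The genes were listed by what their products do, and they fall into 8 roles: kinetochore, spindle checkpoint, cyclins and mitotic kinases, chromosomal passenger complex, kinesins, spindle assembly and cytokinesis, chromosome structure and separation, and a proliferation marker with a transcription factor. All 45 were found among the 36047 genes joined to the deposited transcripts, and all 45 were among the 20094 genes with enough counts to be tested. The tissue came from the infarct area of hearts of C57BL6 mice, 12 weeks old by the labels and female by the study's methods, 48 h after ischemia/reperfusion (I/R), in which a coronary artery is tied off for a time and then reopened. The hearts of both groups had been injured in this way. The LGK974 group (3 mice) received, by mouth, LGK974, an inhibitor of Porcupine. Porcupine adds a fatty acid to Wnt proteins, without which they are not secreted. The DMSO group (3 mice) received the vehicle. No uninjured heart and no other time point was analysed here. By the study's account 6 animals, 3 per group, were used for sequencing, which is also the number of libraries. A p-value thus sets the difference between the groups against the spread among the libraries within each group. RNA of a whole piece of tissue was sequenced, so a lower or higher level can come from fewer or more cells of a type or from less or more RNA per cell, and the bulk values cannot tell these apart.

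Before it divides, a cell copies its DNA in S phase and then passes through G2 into mitosis, where cyclin A2 and the B cyclins switch on the kinase CDK1. Condensin and topoisomerase II pack and untangle the chromosomes, kinetochores tie them to spindle microtubules, and the spindle checkpoint holds back the anaphase-promoting complex until every chromosome is attached. Kinesins and bundling proteins then build the midzone and the contractile ring that part the daughter cells. Most cardiomyocytes of an adult mouse have left the cell cycle, and in the first days after infarction the dividing cells of the heart are mainly infiltrating and resident leukocytes, fibroblasts and endothelial cells.

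The genes of the G2/M programme are known for 2 short promoter elements, the CHR, which the MuvB complex binds, and the CCAAT box, which NF-Y binds. Genes of S phase more often carry E2F elements. These letters were searched on both strands in the promoter table of RefSeq (GRCm38.p6, 250 bases before to 50 after each start site), which held 32851 promoters of 27025 genes. Of the 45 mitotic genes, 37 were in it. Spc24, Ccna2, Aurkb, Incenp, Kif20a, Tpx2, Smc4 and Foxm1 were not. The CHR was searched as TTTGAA or TTCGAA, the CCAAT box as CCAAT and the E2F element as TTCCCGC or TTGGCGC. Of these promoters 6 are shown because they carry the pair of elements that most members share, or, for Cenpe, because the gene with the smallest p-value lacks a CHR. They run from 150 bases before to 30 bases after the start site, in the direction of the gene, and the capitals mark the CHR (also in its form TTCAAA on the other strand) and the CCAAT box (also in its form ATTGG on the other strand).
Cdk1, chr10:69352883-69353062, minus strand: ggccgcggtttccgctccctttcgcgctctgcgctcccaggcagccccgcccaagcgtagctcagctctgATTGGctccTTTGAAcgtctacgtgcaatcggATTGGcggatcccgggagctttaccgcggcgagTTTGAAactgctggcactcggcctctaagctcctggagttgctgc
Cdca8, chr4:124936888-124937067, minus strand: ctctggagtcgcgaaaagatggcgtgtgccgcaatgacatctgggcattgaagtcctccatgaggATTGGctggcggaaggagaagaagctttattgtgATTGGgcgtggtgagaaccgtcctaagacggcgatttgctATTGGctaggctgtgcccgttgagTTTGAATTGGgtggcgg
Prc1, chr7:80294301-80294480, plus strand: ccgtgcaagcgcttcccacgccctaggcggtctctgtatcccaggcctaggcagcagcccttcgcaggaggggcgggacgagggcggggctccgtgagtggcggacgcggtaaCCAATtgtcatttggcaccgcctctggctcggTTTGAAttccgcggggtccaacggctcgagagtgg
Top2a, chr11:99024160-99024339, minus strand: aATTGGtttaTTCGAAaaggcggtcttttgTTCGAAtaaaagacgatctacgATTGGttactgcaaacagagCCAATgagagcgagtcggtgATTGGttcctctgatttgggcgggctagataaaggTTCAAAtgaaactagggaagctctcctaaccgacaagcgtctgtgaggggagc
Mki67, chr7:135716350-135716529, minus strand: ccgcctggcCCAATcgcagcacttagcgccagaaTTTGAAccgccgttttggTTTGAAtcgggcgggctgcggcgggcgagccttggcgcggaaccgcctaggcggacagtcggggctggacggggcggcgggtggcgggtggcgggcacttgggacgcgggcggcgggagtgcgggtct
Cenpe, chr3:135212413-135212592, plus strand: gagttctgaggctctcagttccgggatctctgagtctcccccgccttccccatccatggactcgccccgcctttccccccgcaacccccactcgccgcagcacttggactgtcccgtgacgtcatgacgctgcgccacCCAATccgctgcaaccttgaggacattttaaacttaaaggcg
The first promoter is that of the kinase CDK1, in which a CHR lies 15 bases before the start site and a CCAAT box 33 bases upstream of it. Prc1 has nearly the same arrangement, with the CHR 5 bases before the start and the CCAAT box 32 bases upstream. In Cdca8, the CHR and a CCAAT box overlap by a single base. Top2a holds 3 CHR matches and 4 CCAAT boxes within the stretch shown. The CHR matches of Mki67 lie farther from its start site, and Cenpe has a CCAAT box but no CHR match.

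A CHR was present in 30 of the 37 genes (81.1%), in any promoter of the gene, compared with 21.7% of all genes in the table. The match lay within 50 bases of the start site in 28 of the 37 (75.7%), compared with 6.12% of all genes. A CCAAT box was present in 28 (75.7%, all genes 41.1%), and both elements were present in 26 (70.3%, all genes 8.61%). A pair of CCAAT boxes spaced 30 to 35 bases apart was found in 8 (21.6%, all genes 1.85%). E2F elements were found in 7 (18.9%, all genes 7.79%), namely in Cdk1, Ccnb1, Kif15, Ect2, Ncapg, Ncaph and Mki67. Where a CHR near the start had a CCAAT box upstream of it, the distance between them had a median of 35 bases. It ranged from 9 to 153 bases over 27 matches, in which Prc1 and Ect2 count with 2 promoters each. Nuf2, Mad2l1, Birc5 and Nusap1 held a match to none of the 3 elements in this window, which says only that these letters do not occur there. A match is a string of letters and not a shown binding site.

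**Figure D1:**
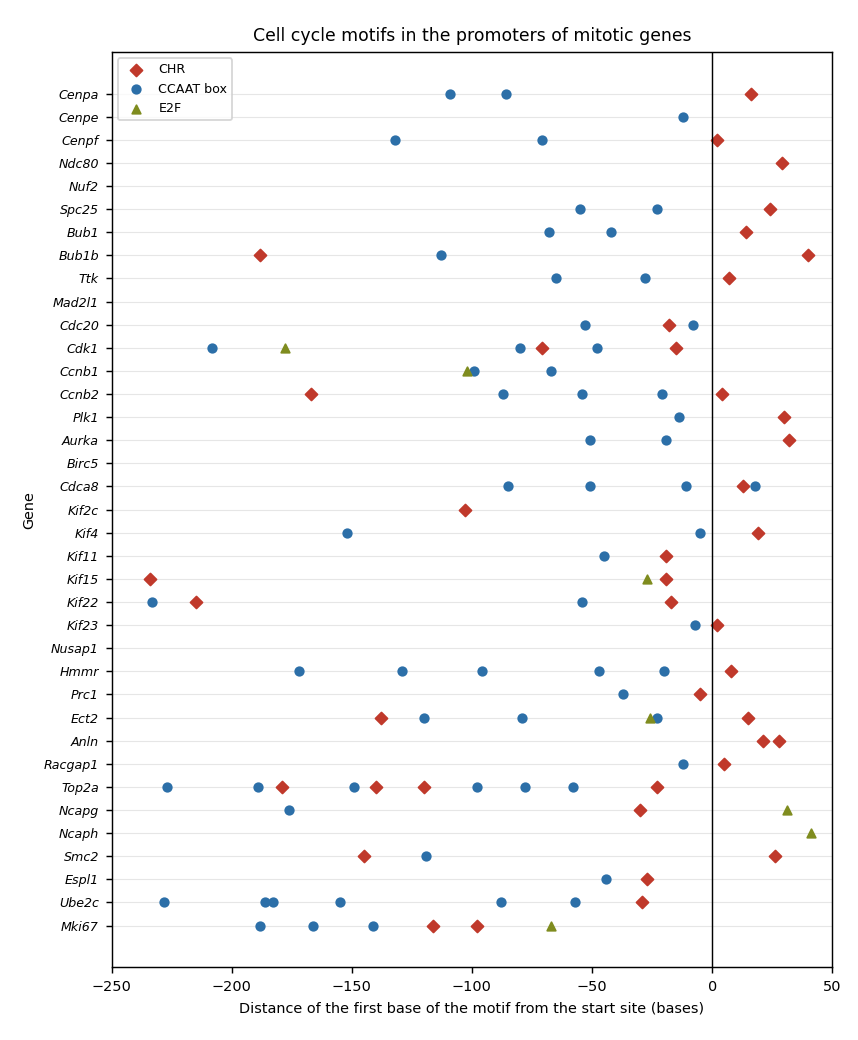
Positions of CHR, CCAAT box and E2F matches in the promoters of the 37 mitotic genes in the RefSeq table; the horizontal axis is the distance of the first base of a match from the start site in bases, and each row is a gene, with 1 promoter each. CHR matches gather around the start site and CCAAT boxes before it, and over all promoters of these genes 65 of 67 CCAAT matches lay before the start site.

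Other cell cycle groups had other shares. Of 78 further mitotic genes, 64 were in the table, and of these a CHR was found in 57.8%, a CCAAT box in 60.9% and an E2F element in 28.1%. In the 35 of 45 S phase genes in the table the order of CHR and E2F was the reverse, with a CHR in 17.1% and an E2F element in 54.3%. A CCAAT box was in 57.1% of them, nearly as often as in the further mitotic genes. In the 15 genes of subunits of the anaphase-promoting complex in the table, the CHR share was 20.0%, close to that of all genes. The CCAAT box share was 33.3%. Of 8 cohesin genes in the table, 37.5% had a CHR and 62.5% a CCAAT box. The median log2 fold change was 0.61 in the 30 genes with a CHR (range −0.23 to 1.06), 0.39 in the 7 without (range −0.29 to 1.13) and 0.79 in the 8 that were not in the table. These are descriptions of overlapping ranges and carry no test.

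Most of the mitotic genes were at a higher level with LGK974 than with DMSO, by a modest amount in each, and no single gene passed the test across all genes. The log2 fold change (LGK974 against DMSO) was above 0 in 42 of 45 members, compared with 40.5% of all tested genes. Its median over the members was 0.60 (range −0.29 to 1.13), whereas the median over all tested genes was −0.13. At an unadjusted p under 0.05 in edgeR's quasi-likelihood test, 23 members were higher with LGK974, while 6.26% of all genes were, and 0 members were lower, while 7.18% of all genes were. Every LGK974 library lay above every DMSO library in 19 members, a pattern found in 10.7% of all genes, and the opposite was found in 0 members and in 7.27% of all genes. After Benjamini-Hochberg adjustment edgeR called 0 members and 0.0% of all genes, with a lowest adjusted p of 0.368, a value that many genes share. DESeq2, the tool named by the study, gave 5 members an adjusted p under 0.05, all higher with LGK974 (Cenpe, Ccna2, Mki67, Tpx2 and Top2a), where 0.852% of the genes it tested were called in that direction. The members were put together with earlier results of these data known, so these counts describe the group and do not test it as a whole.

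Depth was 41579787 to 80398211 estimated counts per library, and the lowest count of any member was 65. A library of the DMSO group, replicate 1, stood apart from the others. In it, 98.9% of 1780 genes of the olfactory, vomeronasal and taste receptor families, which a heart is not known to use, had counts. The share was 81.3, 61.4 and 53.0% in LGK974 replicates 1, 2 and 3 and 82.8 and 62.6% in DMSO replicates 2 and 3. The median counts per kilobase of these genes were 11.1, 3.08 and 0.952 in LGK974 replicates 1, 2 and 3 and 37.0, 11.9 and 2.10 in DMSO replicates 1, 2 and 3. LGK974 replicate 3 thus had the lowest value of the 6 libraries. With counts less this background, a fit chosen after seeing the data, the members had log2 fold changes of −0.40 to 1.27. The median of all genes was −0.02 in that fit. Whether the background has a part in the differences between the groups was not tested. With DMSO replicate 1 the fit had a common dispersion of 0.238, and without this library 0.0825. Mitochondrial genes took 28.2 to 53.7% of the counts in the LGK974 group and 39.3 to 42.8% in the DMSO group. Without DMSO replicate 1, the log2 fold changes of Ndc80, Spc24, Mad2l1, Birc5 and Hmmr, given beside their values, moved the most. Of the other members, those of Nuf2 (0.39 with and 0.77 without this library), Kif2c (0.37 and 0.59), Kif15 (0.24 and 0.53) and Ncapg (0.31 and 0.49) were larger without it. So, among others, were those of Ect2 (0.60 and 0.83), Kif11 (0.64 and 0.84), Espl1 (0.58 and 0.78) and Cdca8 (0.83 and 1.02). Those of Cenpa (0.15 and 0.03), Aurkb (0.22 and 0.08), Cdc20 (0.48 and 0.31), Kif22 (0.55 and 0.36) and Ube2c (0.56 and 0.35) were smaller, and Foxm1 had an unadjusted p of 0.0666 without it.

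The summed level of the 45 genes showed how the libraries differed. Levels are given as CPM, the counts per 1000000 of the library size as scaled by TMM. The sum was 997, 701 and 1137 CPM in LGK974 replicates 1, 2 and 3 and 585, 610 and 548 CPM in DMSO replicates 1, 2 and 3. The groups did not overlap, but LGK974 replicate 2 lay nearer to the DMSO libraries than to the other 2 of its group. LGK974 replicate 3 had the highest level of the 6 libraries in 37 members and LGK974 replicate 1 in 3. DMSO replicate 1 was highest in the other 5, which were Ndc80, Spc24, Mad2l1, Birc5 and Hmmr. The lowest level was in DMSO replicate 3 for 27 members, in DMSO replicate 1 for 14, in DMSO replicate 2 for 3 and in LGK974 replicate 2 for 1. Mki67 alone made up 24.2 to 26.7% of the sum in the LGK974 libraries and 16.5 to 23.3% in the DMSO libraries. Without it the sums were 730, 532 and 862 CPM with LGK974 and 489, 479 and 421 CPM with DMSO, so the groups stayed apart.

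**Figure D2:**
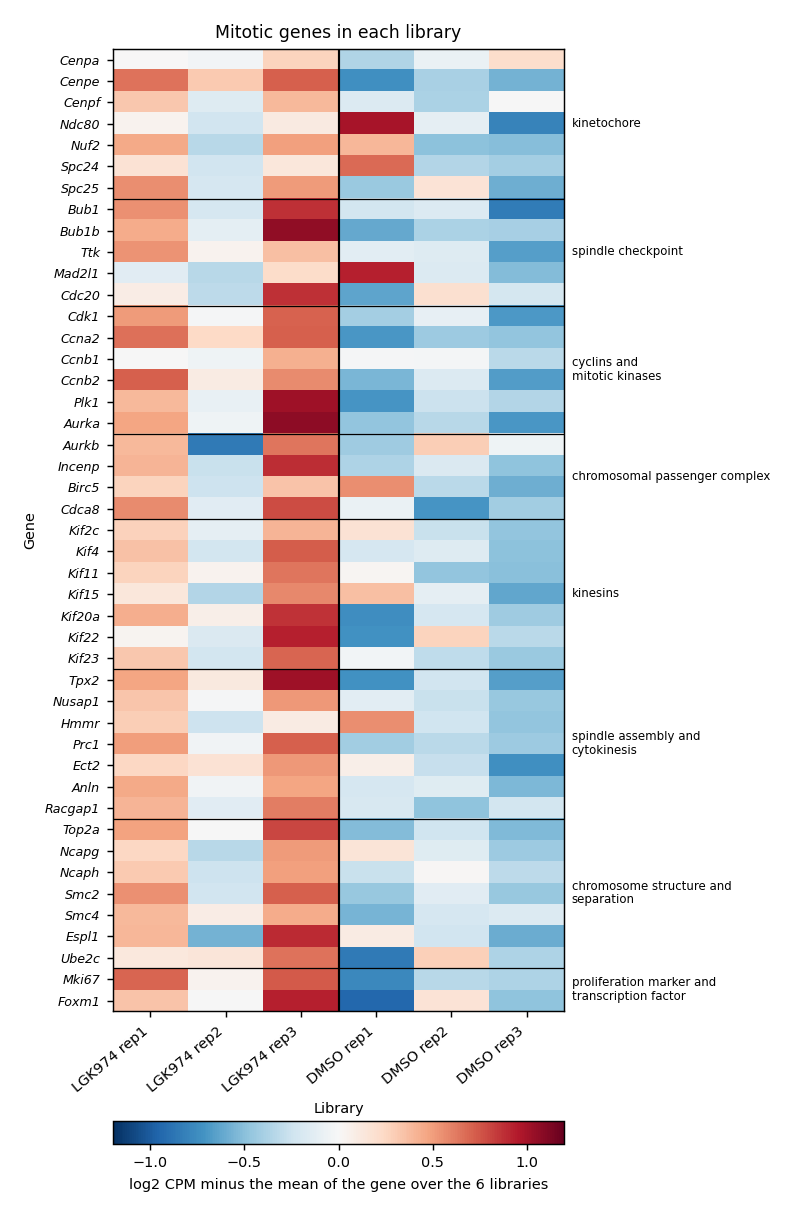
Level of each of the 45 mitotic genes in the 6 libraries, as log2 CPM minus the gene's mean over the 6 libraries (colour scale), with genes grouped by role. LGK974 replicates 1 and 3 are high in most rows, LGK974 replicate 2 is intermediate, and DMSO replicate 1 is the highest library in 5 rows.

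Kinetochores join chromosomes to microtubules, and their 7 members spanned the widest range of log2 fold changes of any role, from −0.23 to 1.13. Cenpe, a kinesin motor that moves chromosomes to the spindle equator, was at 43.1, 34.2 and 45.3 CPM with LGK974 and at 16.5, 21.04 and 18.5 CPM with DMSO. Every LGK974 library lay above every DMSO library by a wide gap. The difference was 2.18-fold (log2 1.13, SE 0.171, unadjusted p = 0.000196 and adjusted p = 0.368 in edgeR's test), and Cenpe had the largest log2 fold change and the smallest p of the 45. Its log2 fold change stayed between 1.06 and 1.30 in all 17 alternative settings, and DESeq2 gave it an adjusted p of 0.00063. Cenpf, a large protein of the outer kinetochore, was at 49.0, 35.2 and 51.3 CPM with LGK974 and at 35.01, 30.1 and 39.2 CPM with DMSO, and the groups overlapped. Cenpa, the histone H3 variant that marks the centromere, was at 12.7, 12.4 and 15.3 CPM with LGK974 and at 9.85, 12.0 and 14.7 CPM with DMSO. Its log2 fold change was 0.15 (95% interval −0.31 to 0.60). By length-scaled level (TPM, averaged over the 6 libraries), Spc24 at 9.4 and Cenpa at 7.45 were the most abundant members of this role.

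Ndc80, Nuf2, Spc24 and Spc25 form the NDC80 complex, the rod that grips the microtubule end, in equal numbers. Ndc80 was at 9.81, 8.17 and 10.3 CPM with LGK974 and at 19.0, 8.87 and 5.48 CPM with DMSO, a log2 fold change of −0.23 (SE 0.412). Spc24 was at 11.3, 8.55 and 11.0 CPM with LGK974 and at 16.0, 7.86 and 7.56 CPM with DMSO (log2 fold change −0.03, unadjusted p = 0.932). In both genes DMSO replicate 1 was the highest library. The other 2 DMSO libraries lay below the LGK974 range for Spc24, and for Ndc80 one lay inside it and one below. Nuf2 was at 13.8, 7.99 and 14.1 CPM with LGK974 and at 13.3, 7.14 and 7.07 CPM with DMSO. Spc25 was at 8.02, 4.74 and 7.75 CPM with LGK974 and at 4.0, 6.10 and 3.64 CPM with DMSO (log2 fold change 0.58, SE 0.308). Without DMSO replicate 1, the log2 fold changes of Ndc80, Nuf2, Spc24 and Spc25 were 0.42, 0.77, 0.43 and 0.51. Over the role, 5 of 7 genes were higher, and the median log2 fold change was 0.38. An unadjusted p under 0.05 was reached by 1 of 7 (Cenpe), compared with 6.26% of all genes in that direction.

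Of the 5 genes of the spindle checkpoint, 4 had a log2 fold change above 0 and 2, Bub1 and Bub1b, had an unadjusted p under 0.05 (6.26% of all genes in that direction). Bub1b, which encodes BUBR1, a part of the mitotic checkpoint complex, was at 13.2, 8.90 and 20.3 CPM with LGK974 and at 6.33, 7.43 and 7.32 CPM with DMSO (2.01-fold, log2 1.01, SE 0.297, unadjusted p = 0.00990). The groups did not overlap, although the LGK974 values were widely spread. Bub1, a checkpoint kinase that also marks centromeric chromatin, was at 7.63, 4.55 and 9.57 CPM with LGK974 and at 4.50, 4.65 and 2.92 CPM with DMSO (log2 fold change 0.85), with LGK974 replicate 2 inside the DMSO range. Ttk, the MPS1 kinase at the head of the checkpoint, was at 5.41, 3.83 and 4.79 CPM with LGK974 and at 3.42, 3.35 and 2.36 CPM with DMSO (unadjusted p = 0.0619), which did not overlap. Cdc20, the activator of the anaphase-promoting complex that the checkpoint holds back, had a log2 fold change of 0.48 (SE 0.373) with overlapping groups. Mad2l1, which encodes MAD2, was at 12.6, 11.0 and 16.1 CPM with LGK974 and at 26.5, 12.4 and 9.63 CPM with DMSO. Its log2 fold change of −0.29 (SE 0.370) was the lowest of the 45, and it was 0.28 without DMSO replicate 1 and 0.52 when counts were scaled from TPM.

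Cyclins and mitotic kinases were the role with the largest median log2 fold change among those of more than 2 genes, 0.93, and all 6 were higher. Ccna2, cyclin A2, which acts in S phase and at the entry into mitosis, was at 32.0, 23.9 and 33.3 CPM with LGK974 and at 12.5, 15.0 and 14.6 CPM with DMSO (2.12-fold, log2 1.08, SE 0.178, unadjusted p = 0.000336). Cdk1, the kinase that drives mitosis, was at 9.65, 6.66 and 11.0 CPM with LGK974 and at 5.08, 6.29 and 4.18 CPM with DMSO (log2 fold change 0.81, SE 0.265). In both genes every LGK974 library lay above every DMSO library, although LGK974 replicate 2 and DMSO replicate 2 were close in Cdk1. The B cyclins are the partners of CDK1 in mitosis. Ccnb2 was at 8.33, 5.43 and 7.50 CPM with LGK974 and at 3.47, 4.53 and 3.19 CPM with DMSO (log2 fold change 0.93), while Ccnb1 was at 5.43, 5.24 and 7.30 CPM with LGK974 and at 5.38, 5.34 and 4.35 CPM with DMSO. For Ccnb1 the log2 fold change was 0.25 (95% interval −0.29 to 0.80), and it was −0.02 when counts were scaled from TPM and 0.83 with protein-coding transcripts only. The difference between the B cyclins was not tested. Plk1 and Aurka, kinases that ripen the centrosomes and start mitosis, had log2 fold changes of 0.94 (SE 0.307) and 1.06 (SE 0.344), both without overlap of the groups. Aurka was at 2.14 to 2.75 CPM with DMSO and at 3.34 to 7.28 CPM with LGK974.

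The chromosomal passenger complex corrects faulty attachments and later acts at the midzone. Of its 4 genes, 2 had an unadjusted p under 0.05 and were higher (6.26% of all genes). Incenp, the scaffold of the complex, was at 35.3, 22.1 and 49.3 CPM with LGK974 and at 20.7, 23.6 and 19.1 CPM with DMSO (log2 fold change 0.75, SE 0.278, unadjusted p = 0.0276). LGK974 replicate 2 lay within the DMSO range. Cdca8, which encodes borealin, was at 7.94, 4.87 and 9.21 CPM with LGK974 and at 5.08, 3.29 and 4.03 CPM with DMSO (log2 fold change 0.83). Birc5, survivin, was at 12.9, 9.03 and 13.6 CPM with LGK974 and at 15.8, 8.58 and 7.15 CPM with DMSO, where DMSO replicate 1 again was the highest library. The log2 fold change of Birc5 was 0.17 (SE 0.321) with all libraries and 0.61 without DMSO replicate 1. Aurkb, the kinase of the complex, had the lowest counts of the 45 and was at 2.87, 1.21 and 3.41 CPM with LGK974 and at 1.63, 2.69 and 2.11 CPM with DMSO (log2 fold change 0.22, SE 0.463, unadjusted p = 0.646). No gene of this role had groups that did not overlap, where 10.7% of all genes had every LGK974 library above every DMSO library.

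All 7 kinesins had a log2 fold change above 0, with a median of 0.57, and 2 had an unadjusted p under 0.05 (6.26% of all genes in that direction). Kif20a, which carries the passenger complex to the midzone, was at 16.8, 13.0 and 22.6 CPM with LGK974 and at 7.39, 10.8 and 9.24 CPM with DMSO (1.91-fold, log2 0.93, SE 0.247). Kif11, the motor that pushes the spindle poles apart, was at 6.76, 5.78 and 8.77 CPM with LGK974 and at 5.71, 4.05 and 3.95 CPM with DMSO. In both the groups did not overlap, in Kif11 by a small margin. Kif23, which forms centralspindlin with RACGAP1, was the most abundant kinesin of the list by TPM (11.7) and was at 14.1, 9.63 and 18.2 CPM with LGK974 and at 11.0, 9.08 and 8.25 CPM with DMSO (log2 fold change 0.57, SE 0.255). Kif15, another spindle motor, was at 12.7, 9.07 and 17.3 CPM with LGK974 and at 14.8, 10.7 and 7.52 CPM with DMSO (log2 fold change 0.24). The groups of Kif15 overlapped over most of their range, and its log2 fold change was −0.06 when counts were scaled from TPM. Kif2c, which takes microtubule ends apart, and the chromosome-bound motors Kif4 and Kif22 had log2 fold changes of 0.37, 0.61 and 0.55.

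Spindle assembly and cytokinesis was the role with the most members past an unadjusted p of 0.05, 6 of 7, and the same 6 had groups that did not overlap. Over all tested genes these shares, in the same direction, were 6.26% and 10.7%. Tpx2, which starts microtubule growth around chromosomes and activates Aurora A, was at 23.0, 17.9 and 33.5 CPM with LGK974 and at 9.98, 14.1 and 10.5 CPM with DMSO (2.15-fold, log2 1.11, SE 0.260, unadjusted p = 0.00301). Prc1, which bundles the microtubules of the midzone, was at 36.0, 24.6 and 41.6 CPM with LGK974 and at 18.9, 20.2 and 18.7 CPM with DMSO (log2 fold change 0.82, SE 0.206). The DMSO values of Prc1 were close together and the LGK974 values were spread. Racgap1, which passes the signal for the cleavage furrow, was at 14.1, 9.63 and 16.2 CPM with LGK974 and at 9.27, 7.59 and 9.09 CPM with DMSO (log2 fold change 0.62, SE 0.228). Its partner Ect2, the exchange factor for RhoA, and Anln, the scaffold of the contractile ring, both had a log2 fold change of 0.60. Nusap1, which crosslinks microtubules near chromatin, had 0.58. Hmmr was the exception and lay at 20.0, 13.7 and 17.4 CPM with LGK974 and at 23.9, 13.8 and 11.7 CPM with DMSO (log2 fold change 0.05, SE 0.287, unadjusted p = 0.865). Without DMSO replicate 1, Hmmr had a log2 fold change of 0.44.

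Among the 7 genes of chromosome structure and separation, all were higher by log2 fold change, with a median of 0.58, and 3 had an unadjusted p under 0.05 (6.26% of all genes in that direction). Top2a, topoisomerase II alpha, was at 56.4, 40.1 and 70.5 CPM with LGK974 and at 28.2, 34.3 and 28.0 CPM with DMSO (1.85-fold, log2 0.89, SE 0.225, unadjusted p = 0.00465). Smc4, a core subunit of condensin, was the most abundant of the 45 by TPM (29.6) and was at 64.8, 52.8 and 67.2 CPM with LGK974 and at 33.6, 43.0 and 44.3 CPM with DMSO (log2 fold change 0.61, SE 0.178). Both had groups that did not overlap. The partner of Smc4 in condensin, Smc2, was at 34.4, 20.2 and 38.9 CPM with LGK974 and at 17.2, 21.5 and 17.3 CPM with DMSO (log2 fold change 0.74), with LGK974 replicate 2 inside the DMSO range. Ncapg and Ncaph, subunits of condensin I, had smaller log2 fold changes of 0.31 (SE 0.289) and 0.40 (SE 0.251), with overlapping groups. For Ncaph it was −0.18 when counts were scaled from TPM. Espl1, separase, and Ube2c, the ubiquitin-conjugating enzyme of the anaphase-promoting complex, had log2 fold changes of 0.58 and 0.56, and neither was separated between groups.

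Mki67, which encodes the proliferation marker Ki-67 that coats mitotic chromosomes, was at 267, 169.6 and 275 CPM with LGK974 and at 96.3, 131 and 128 CPM with DMSO. Every LGK974 library lay above every DMSO library. The difference was 2.01-fold (log2 1.0, SE 0.244, unadjusted p = 0.00359), and the log2 fold change ranged from 0.89 to 1.25 over the alternative settings. Foxm1, the transcription factor that joins MuvB at the promoters of the late cell cycle, was at 13.9, 11.0 and 20.97 CPM with LGK974 and at 5.71, 12.3 and 7.86 CPM with DMSO. Its log2 fold change was 0.82 (SE 0.340, unadjusted p = 0.0426), and DMSO replicate 2 lay above LGK974 replicate 2.

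**Figure D3:**
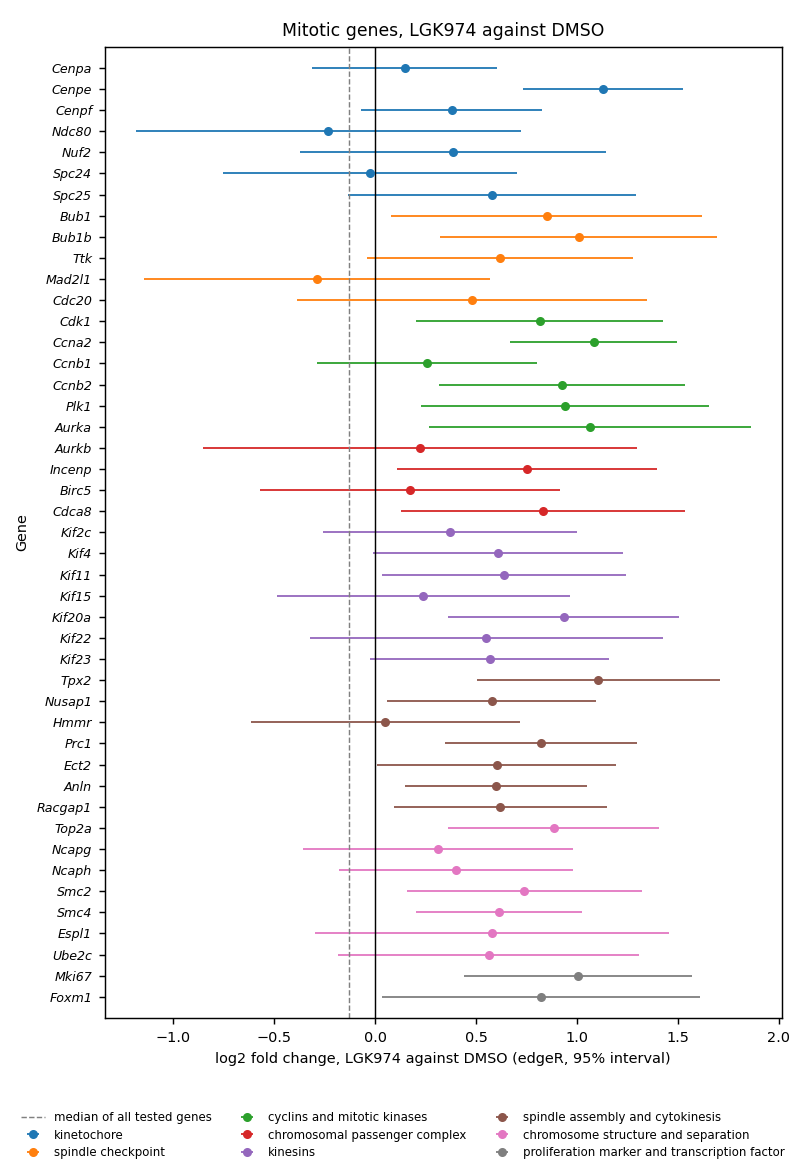
Log2 fold change (LGK974 against DMSO) of the 45 mitotic genes with 95% intervals from edgeR's quasi-likelihood fit, grouped by role (colours), with the median of all tested genes as a dashed line at −0.13. Intervals of 23 genes lie above 0, and the 3 estimates below 0 are Ndc80, Spc24 and Mad2l1.

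The 5 members that were highest in DMSO replicate 1 were examined by transcript. Of Ndc80, the coding transcript of 2201 bases was at 4.01, 3.16 and 4.95 CPM with LGK974 and at 1.12, 1.39 and 1.92 CPM with DMSO. A transcript of the gene annotated for nonsense-mediated decay was at 3.97, 3.30 and 4.47 CPM with LGK974 and at 11.5, 5.07 and 2.47 CPM with DMSO. Thus the coding transcript was separated in the direction of the other mitotic genes, and the excess in DMSO replicate 1 lay on the annotated decay transcript and a retained-intron transcript (6.01 CPM in that library). With protein-coding transcripts alone, the log2 fold change of Ndc80 was 1.38. In the other members of these 5 it fell, to 0.05 for Birc5, −0.15 for Spc24, −0.09 for Hmmr and −0.50 for Mad2l1. Birc5 had a like split between its 2 coding transcripts. The transcript of 947 bases was at 6.21, 3.76 and 6.12 CPM with LGK974 and at 1.45, 3.15 and 2.37 CPM with DMSO, whereas the one of 3334 bases was at 14.3 CPM in DMSO replicate 1 and at 4.77 to 7.45 CPM in the other libraries. In Mad2l1 the excess lay on a coding transcript of 7557 bases, which was at 25.3 CPM in DMSO replicate 1 and at 7.70 to 9.60 CPM in the others. For Spc24 and Hmmr it lay on the main coding transcript.

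The same library differed in the make-up of the whole group. Of all counts of the 45 genes, 74.6% were on protein-coding transcripts in DMSO replicate 1 and 85.4 to 87.7% in the other 5 libraries. Over all nuclear protein-coding genes together, a sum in which genes with many counts weigh most, the share was 87.7 to 88.9% in every library. Other genes at the level of the members were not compared, so whether the lower share is particular to the members was not tested. Without DMSO replicate 1, all 45 members had a log2 fold change above 0 and 28 had an unadjusted p under 0.05 (7.12% of all genes did in that direction). Kallisto divides reads between transcripts of a gene by a model, so the split is an estimate. Overlapping exons of another gene on the other strand were annotated for 11 members, the longest being 1271 bases of Cdc23 in Kif20a, and on the same strand for Top2a (122 bases) and Foxm1 (144 bases), so the values of these genes can hold reads of their neighbours.

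Other genes of the cell cycle were taken from lists written by function. Of 78 further mitotic genes, 62 had a log2 fold change above 0, 18 had an unadjusted p under 0.05 and were higher, and 0 were lower at that threshold. Over all tested genes, 40.5% were above 0, and 6.26% were higher and 7.18% lower at that threshold. These shares stand beside the counts of each list below. Their median log2 fold change was 0.35, between that of the 45 members and that of all genes. The smallest p-values were those of Aspm, a spindle pole protein (log2 fold change 0.81, SE 0.180), Arhgap11a, a RhoA regulator of cytokinesis (0.99, SE 0.215), and Ckap2l, a spindle protein (0.97, SE 0.216). In each of the 3 genes every LGK974 library lay above every DMSO library. Bora, Cenpi, Cenpq and Cenpw, named here after their values were seen, were the further mitotic genes with log2 fold changes below −0.5. Each was highest in DMSO replicate 1, as the 5 members above were, for example Bora at 32.9 CPM there and at 5.78 to 12.0 CPM in the other libraries.

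Of 45 S phase genes, 37 had a log2 fold change above 0, 8 were higher at an unadjusted p under 0.05 (6.26% of all genes) and 0 were lower (7.18%), with a median of 0.29. The smallest p-values were those of Mcm3, Mcm4 and Mcm6, subunits of the replicative helicase, with log2 fold changes of 0.86 (SE 0.262), 0.64 (SE 0.213) and 0.70 (SE 0.232). The summed level of the S phase genes was 545, 469 and 693 CPM with LGK974 and 553, 464 and 429 CPM with DMSO, so that the groups overlapped through DMSO replicate 1 alone. The ratio of the mitotic to the S phase sum was 1.83, 1.5 and 1.64 with LGK974 and 1.06, 1.31 and 1.28 with DMSO. Of 10 G1 cyclins and kinases, 9 were above 0 and 2 had an unadjusted p under 0.05, namely Ccnd1, the cyclin induced by growth signals (65.5, 51.2 and 70.2 CPM with LGK974 and 25.7, 46.2 and 43.6 CPM with DMSO), and Cdk6, a partner of the D cyclins (log2 fold change 0.61). Of the same list, Cdk4 had a log2 fold change of 0.47 (SE 0.208).

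Among the regulators, medians were between 0.09 and 0.13. Of 15 inhibitors of the cell cycle, 9 were above 0, with a median of 0.10, and 2 had an unadjusted p under 0.05, Btg1 (0.56) and Trp53 (0.55), with Btg2 (0.55) next. Of 17 genes of the MuvB complex, its MYB partners and the E2F family, which act on promoters with these elements, 12 were above 0 with a median of 0.13, and at an unadjusted p under 0.05, 3 were higher and 1 lower. The lower share, 5.88%, was near the 7.18% of all genes. Among these E2f8, a repressor that peaks in S phase, and Tfdp1, the dimer partner of E2F factors, were higher (log2 fold changes 0.70 and 0.58), while Tfdp2, a paralog of Tfdp1, was lower. Tfdp2 was at 32.8, 44.95 and 20.4 CPM with LGK974 and at 57.6, 60.3 and 76.9 CPM with DMSO (log2 fold change −0.99, SE 0.287), with every LGK974 library below every DMSO library. Of 16 subunits of the anaphase-promoting complex, 11 were above 0 with a median of 0.12, and the only gene with an unadjusted p under 0.05 was Anapc16, which was lower (−0.38, SE 0.160). This was 6.25% of the list, near the 7.18% of all genes that were lower. Cdc16 (0.37) and Ube2s (0.31) had the next smallest p-values. Of 12 cohesin genes, 10 were above 0 with a median of 0.09 and 0 had an unadjusted p under 0.05 in edgeR's test. Pds5a, Smc1a and Wapl had the smallest p-values of that list, with log2 fold changes of 0.25, 0.26 and −0.29.

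**Figure D4:**
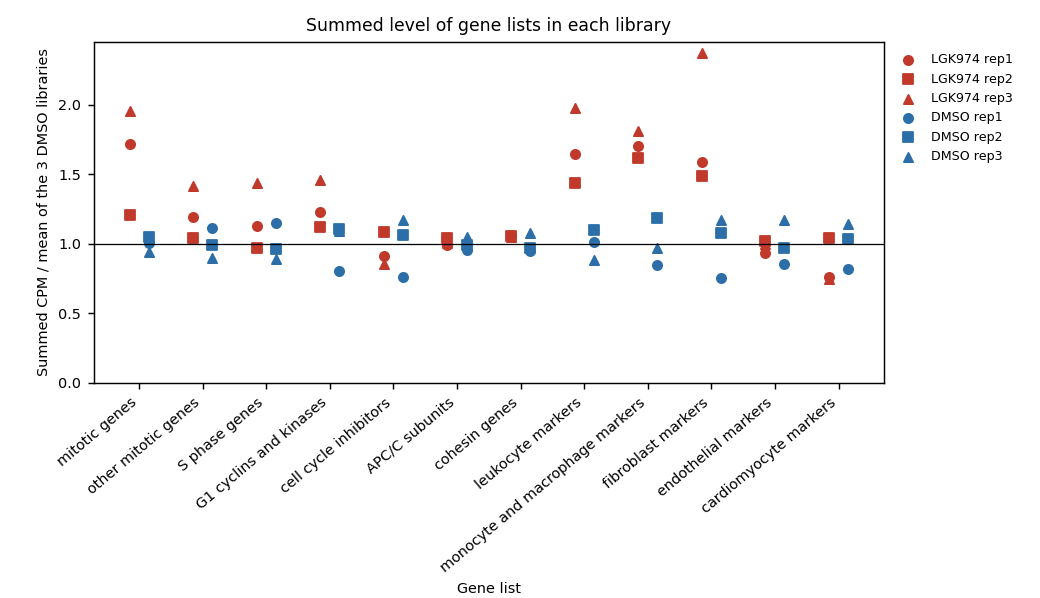
Summed CPM of gene lists in each library, divided by the mean of the 3 DMSO libraries; points are single libraries and the line at 1 marks the DMSO mean. The mitotic genes and the leukocyte, monocyte and macrophage, and fibroblast markers lie above 1 in all 3 LGK974 libraries. So do the further mitotic genes, whose groups overlap, and the G1 cyclins and kinases. The subunits of the anaphase-promoting complex (APC/C) and the cohesin genes lie near 1 in all 6 libraries. In the LGK974 libraries the cohesin genes lie slightly above 1.

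Among the marker lists, those of leukocytes, of monocytes and macrophages and of fibroblasts were higher with LGK974 in most of their genes, as the mitotic genes were. The study's flow cytometry of whole hearts of other animals, at the same time after injury, went the opposite way for leukocytes. It counted fewer leukocytes and fewer inflammatory monocytes with LGK974. Marker RNA of infarct tissue and cell counts are unlike measures, and the cause of the difference was not tested. Of 12 markers of leukocytes, all 12 had a log2 fold change above 0, with a median of 0.86, and 11 had an unadjusted p under 0.05 in edgeR's test (6.26% of all genes in that direction). Their summed level was 306 to 422 CPM with LGK974 and 189 to 235 CPM with DMSO, and no marker of the list was at 0 in any library. The leukocyte sum put the 6 libraries in the same order as the mitotic sum did. The ratio of the mitotic to the leukocyte sum was 2.83, 2.29 and 2.69 with LGK974 and 2.70, 2.60 and 2.90 with DMSO. Per unit of leukocyte marker, the mitotic genes were thus at 2.60 ± 0.281 (SD, n = 3) with LGK974 and 2.73 ± 0.155 (SD, n = 3) with DMSO, and the ranges overlapped. For the most abundant leukocyte markers by TPM, Fcer1g and Lcp1, the log2 fold changes were 0.87 (SE 0.223) and 0.54 (SE 0.215).

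Of 14 markers of monocytes and macrophages, 13 were above 0 and 9 had an unadjusted p under 0.05 (6.26% of all genes in that direction), with a median of 0.81. Lyz2, lysozyme of myeloid cells, was at 164, 165 and 212 CPM with LGK974 and at 52.2, 81.9 and 85.7 CPM with DMSO (log2 fold change 1.30), and Cd68 had a log2 fold change of 1.06. The list sum was 675 to 756 CPM with LGK974 and 354 to 493 CPM with DMSO, and no marker was at 0. The ratio of the mitotic to the macrophage sum was 1.40, 1.04 and 1.5 with LGK974 and 1.65, 1.24 and 1.36 with DMSO. Of 12 fibroblast markers, 11 were above 0 and 4 had an unadjusted p under 0.05 (6.26% of all genes in that direction), with a median of 0.44. Their sum was 3863 to 6158 CPM with LGK974 and 1953 to 3039 CPM with DMSO. The ratio of the mitotic to the fibroblast sum was 0.242, 0.182 and 0.185 with LGK974 and 0.3, 0.218 and 0.18 with DMSO, which overlapped. Col3a1, a fibrillar collagen, had a log2 fold change of 1.14 (SE 0.319) and Dcn one of 0.00 (SE 0.316), so the list did not move as a block.

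In the remaining lists at most 2 genes had an unadjusted p under 0.05, where 6.26% of all genes were higher and 7.18% lower. Of 12 endothelial markers, 6 were above 0 and 0 had an unadjusted p under 0.05 in edgeR's test, and their sum was 719 to 784 CPM with LGK974 and 659 to 903 CPM with DMSO (Pecam1 log2 fold change 0.04, Cdh5 0.01). The ratio of the mitotic to the endothelial sum was 1.39, 0.894 and 1.48 with LGK974 and 0.888, 0.813 and 0.607 with DMSO. Of 9 mural cell markers, 5 were above 0 with a summed level of 739 to 928 CPM with LGK974 and 680 to 1067 CPM with DMSO (Rgs5 −0.16, Acta2 0.99 with overlapping groups). Cardiomyocyte markers, which check the labelled tissue, were the most abundant of these lists, at 43554 to 60756 CPM with LGK974 and 48061 to 66595 CPM with DMSO. Of these 14 markers 4 were above 0, and 2, Actc1 and Nppa (named after their values were seen, log2 fold changes 0.86 and 1.04), had an unadjusted p under 0.05 and groups that did not overlap, while Myh6 and Tnnt2 had log2 fold changes of −0.47 and −0.42. Of 10 neutrophil markers, 5 had too few counts to be tested (Retnlg, Ly6g, Camp, Ngp and Ltf), and all 5 were listed at 0 in at least 1 library. Of the 5 tested, 1 was lower at an unadjusted p under 0.05 (Cxcr2, highest in DMSO replicate 1). S100a8 and S100a9 were at 4.05 to 7.95 and 2.72 to 6.24 CPM. T cell and B cell markers were highest in DMSO replicate 1, with sums of 54.7 and 25.5 CPM there and 20.5 to 25.0 and 9.75 to 18.0 CPM in the others (Cd3d −0.19, Cd4 −0.89, Cd22 −0.52, Blk 0.62). Erythroid markers summed to 13.0 to 18.0 CPM over all 6 libraries (Hba-a2 0.27, Hbb-bt 0.02). The part of any of these cell types in the result for the mitotic genes was not tested.

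The direction of the group did not turn on the way the counts were processed. The median log2 fold change of the 45 genes was 0.53 to 0.84 over the 17 alternative settings, with the lowest value when LGK974 replicate 3 was left out and the highest when LGK974 replicate 2 was left out. The median of all genes was −0.15 to 0.02 in the same settings, except for −0.55 when genes of low count were kept and −0.75 with DESeq2, fits that 34257 genes entered. Scaling the counts from TPM moved single genes further: the log2 fold change was then 0.40 for Bub1b, 0.50 for Bub1, 0.41 for Ttk, 0.68 for Tpx2, 0.10 for Ect2, 0.075 for Nusap1, 0.15 for Espl1 and 0.0049 for Kif2c, and it was 0.83 for Nuf2, 0.93 for Kif22, 0.75 for Ncapg and 1.0 for Racgap1. With protein-coding transcripts only it was 0.35 for Smc4, 0.41 for Ttk, 0.89 for Espl1 and 0.88 for Kif23, and with counts less background (chosen after seeing the data) it was 1.14 for Kif11. What did depend on single libraries was the number past the unadjusted threshold. It was 11 of 45 without LGK974 replicate 1 and 11 without LGK974 replicate 3, and it was 30 without LGK974 replicate 2 and 28 without DMSO replicate 1. Those counts stand beside 4.29%, 3.23%, 6.1% and 7.12% of all genes in the same fits.

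**Figure D5:**
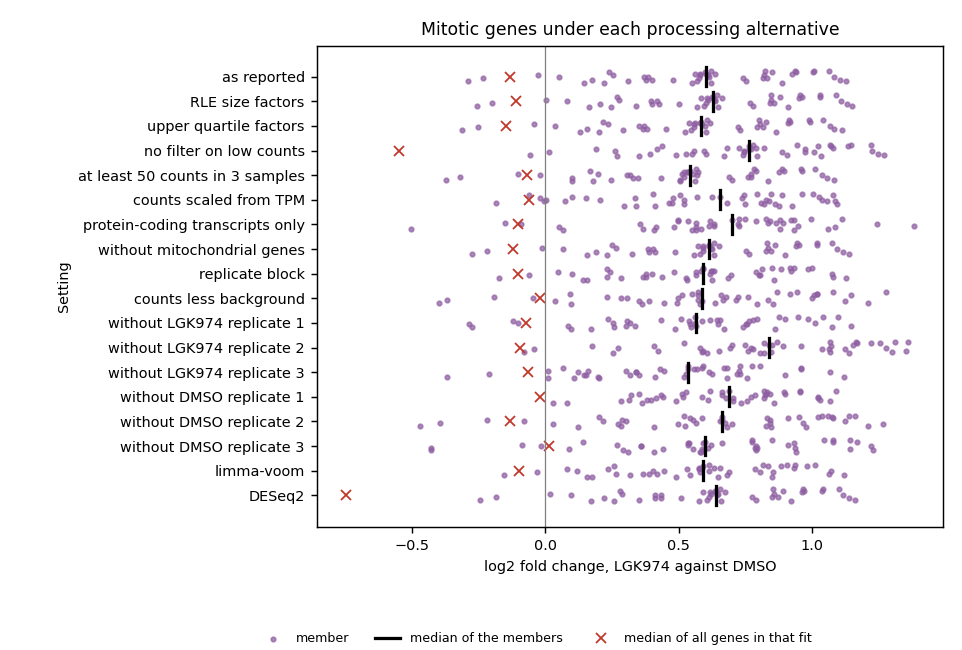
Log2 fold changes of the 45 mitotic genes (LGK974 against DMSO, horizontal axis; 1 point per gene) under each way of processing the counts (rows), with the median of the members as a bar and the median of all genes of the same fit as a cross. The bars stay between 0.53 and 0.84 in the alternative settings, to the right of the cross in every row.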

How the data were processed

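Total RNA of infarct tissue was depleted of ribosomal RNA, made into libraries with a capture kit for coding RNA and sequenced. The authors quantified transcripts with Kallisto on an Ensembl index of GRCm38 (the build in the submitters' processing notes) and deposited, per library, the estimated counts and the TPM of 118489 transcripts. Trimming and the version of Kallisto are not given in the sources used here.

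Estimated counts were summed per gene with GENCODE M21 (98.6% of transcripts joined to 36047 genes) and rounded. The deposited TPM values were summed per gene only to order genes by abundance and, as an alternative, to rescale counts. TPM levels were not compared between libraries, whose mitochondrial shares differ. Genes that reached 10 counts in 3 or more samples entered the quasi-likelihood test of edgeR (version 4.0.16 under R 4.3.3), with TMM scaling, 95% intervals, Benjamini-Hochberg adjustment at 0.05 and no factor besides treatment. DESeq2 1.42.0, limma 3.58.1 and the other alternatives are in the closing section. The fits were tested on simulated data. An exact permutation test of 3 against 3 libraries cannot give a p below 0.1 and was not used. Python 3.11.15 with pandas 2.3.3, numpy 2.4.6 and matplotlib 3.10.9 served for tables and plots. Depth was 41579787 to 80398211 estimated counts per library.

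The members and all lists were chosen with earlier results of these data known, so no list was tested as a set. Genes named with full values were the 2 members of each role with the highest mean TPM, the 5 members with the smallest and the 3 with the largest unadjusted p, and members whose direction turned in an alternative; the 3 genes of each other cell cycle list with the smallest p; and the 2 genes of each marker list with the highest mean TPM. Other values of members are given to account for each role.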

Additional observations from a re-analysis of the deposited data

How the results depend on the processing

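Of 765 values (45 log2 fold changes in 17 alternatives), 728 kept their direction and their side of an adjusted p of 0.05, 14 moved past it and 23 changed sign. The sign changes were in 7 members: Ndc80 (0.014 without a filter on low counts, 1.38 with protein-coding transcripts only, −0.43 to 0.42 with a library left out), Spc24 (0.0045 with RLE size factors, 0.018 with DESeq2, 0.049 with the replicate block, 0.084 with limma-voom, 0.19 without a filter, 0.34 with counts scaled from TPM, −0.22 to 0.43 with a library left out), Mad2l1 (0.52 with counts scaled from TPM, −0.47 to 0.28 with a library left out), Hmmr (−0.021 with at least 50 counts, −0.091 with protein-coding transcripts only, −0.047 with counts less background, −0.10 to 0.44 with a library left out), and, with counts scaled from TPM, Ccnb1 (−0.018), Kif15 (−0.059) and Ncaph (−0.18). The cause was not tested.

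Over all genes, calls at an adjusted p under 0.05 numbered 0 as reported, 1206 without a filter on low counts, 289 with DESeq2 and 0 to 2 with a library left out. Of the members, 9 were called without a filter, all higher, where more genes entered the fit and 1206 of 34257 were called in either direction. At an unadjusted p under 0.05, 4.08% of the genes in that fit were higher. DESeq2 called 5 members, all higher, where 0.852% of the genes it tested were called higher. The 1257 genes higher at an unadjusted p under 0.05 became 636 to 1823 with a library left out, and the 1442 lower became 3392 without a filter, 683 with limma-voom, 3234 with DESeq2 and 185 to 2805 with a library left out. The 23 members higher at that threshold became 11 to 30, and the 19 whose groups did not overlap became 18 to 35, where fewer libraries are separated more easily (14.5 to 23.5% of all genes in these fits, 18.0% in the fit with 35). Medians that moved were those of the further mitotic genes (0.27 to 0.64 with a library left out), the inhibitors (−0.0082 to 0.40), the MuvB, MYB and E2F genes (0.30 without a filter, 0.28 with counts less background, 0.14 to 0.34 with a library left out), the subunits of the anaphase-promoting complex (0.28 without a filter, 0.31 with counts scaled from TPM, 0.0041 with counts less background, 0.073 to 0.29) and the cohesin genes (0.24 without a filter, 0.015 with counts less background, 0.022 to 0.29). Subtracting background, estimated from the receptor families, was chosen after seeing the data.

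Groups share the replicate numbers 1 to 3, but the same-numbered libraries did not deviate together in every case (correlations of their deviations 0.475, −0.05 and 0.391), so the numbers were not taken as pairs. With a replicate block, 20 members were higher at an unadjusted p under 0.05 (6.02% of all genes) and 0 passed adjustment, with a median of 0.59.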
